A study of Mus musculus with 4 samples.

Results

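The genes described are 10 that are known from mast cells: the proteases Cma1, Cpa3, Tpsb2, Tpsab1 and Mcpt4, the IgE receptor chains Fcer1a and Ms4a2, the histamine-forming enzyme Hdc, and the regulators Gata2 and Kit. They were picked by symbol in a table of 19088 genes, and 9 of the 10 were measured. Tpsab1, which RefSeq calls a transcribed pseudogene in the C57BL/6J assembly and GENCODE M21 lists as protein coding, was not analysed here. The set was chosen with the KO against WT differences of these data known, so those differences are given as a description and support nothing.

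Mast cells are tissue-resident granulocytes that store proteases, histamine and heparin on a serglycin matrix and release them when IgE bound to its high-affinity receptor is cross-linked. The receptor is built of an alpha chain that binds IgE (Fcer1a), a beta chain that amplifies the signal (Ms4a2) and the shared gamma chain (Fcer1g). KIT, the receptor for stem cell factor, keeps mast cells alive, and GATA2 is a transcription factor they need. Basophils share Fcer1a, Hdc and Gata2, and adipose tissue holds mast cells of the connective tissue type, which carry chymases, tryptase and carboxypeptidase A3.

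The RNA came from group 2 innate lymphoid cells (ILC2s), lymphocytes that make type 2 cytokines, sorted from the epididymal fat of male C57BL/6 mice aged 8 weeks. There were 2 libraries of WT mice (R5/+) and 2 of KO mice (R5/+Stk11f/f, a floxed allele of the kinase gene LKB1), so all 4 carry the R5 allele. The labels do not expand R5, and the cells in which it drives recombination, the sort gate and any pooling of animals are not stated in the labels. Nothing says that the libraries of a group came from separate animals, so errors and p-values cover the spread between samples, which can be technical alone.

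Stk11, the floxed gene, had 43.07 and 39.11 FPKM in the WT libraries and 31.88 and 16.55 FPKM in the KO libraries (adjusted p = 0.548 by limma). FPKM is a count of fragments per unit of transcript length and of sequencing depth. The ILC2 genes fixed as a reference, Gata3, Rora, Il7r, Id2, Bcl11b and Thy1, were all present, and their summed level was 6238 FPKM in WT 1, 6210 in WT 2, 5965 in KO 1 and 6245 in KO 2. Most of that sum was Id2, at 5017 and 5149 FPKM (WT) against 4870 and 5317 FPKM (KO). Rora stood at 351 and 248 FPKM (WT) against 220 and 181 FPKM (KO), and Thy1 at 50.3 and 77.2 against 45.5 and 44.25 FPKM. Rora and Thy1 thus lay lower in both KO libraries than in both WT libraries, while the other reference genes overlapped between groups. Neither Rora nor Thy1 was called (limma adjusted p = 0.538 and 0.703). The share of all genes with this order is not given here, so nothing is read from it. Genes that define eosinophils (Siglecf and Epx) and other lineages were low: Siglecf, Epx, Csf1r, Mrc1, C1qa, Ly6g, Mpo, Pax5, Ncr1, Eomes and Pdgfra were each under 1 FPKM in all 4 libraries. Under 1 FPKM throughout were 8 of 15 macrophage and dendritic cell genes, 5 of 5 neutrophil genes, 3 of 7 T cell genes, 3 of 7 B cell genes, 4 of 8 NK and ILC1 genes, 2 of 8 adipocyte genes and 9 of 12 stromal and endothelial genes. In these 7 lists Cd3g (189 to 267 FPKM) and Nkg7 (176 to 272 FPKM) were the highest. Basophil genes were an exception: of 10 measured basophil and eosinophil genes, 4 were under 1 FPKM throughout, while Prss34 lay at 104 to 463 FPKM, Mcpt8 at 43.4 to 159 FPKM and Cd200r3 at 34.5 to 94.5 FPKM. The share of FPKM in haemoglobin genes was 5.40% and 7.86% for the WT libraries, 7.18% for KO 1 and 2.83% for KO 2. In KO 2, which stood above KO 1 in 7 of the 9 mast cell genes, the haemoglobin share was the lowest of the 4. The share of the mast cell genes is also given below without red blood cell genes. Any other part of haemoglobin in the values below was not tested.

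**Figure D1:**
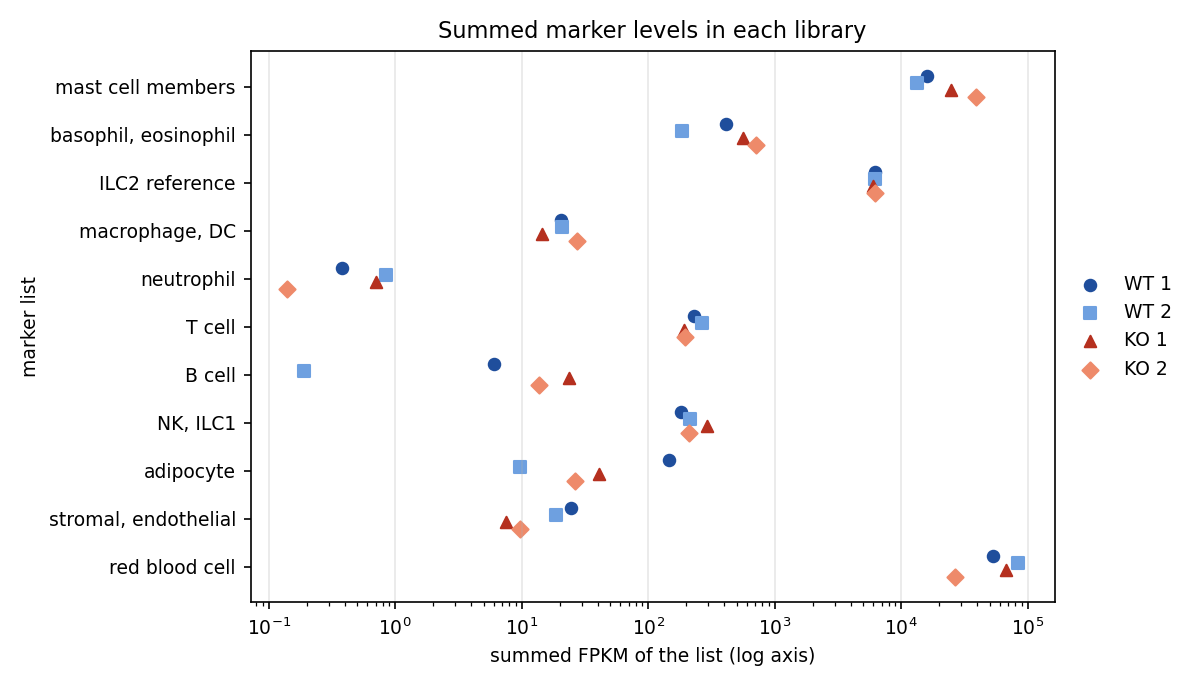
Summed FPKM of each marker list (log axis) in each of the 4 libraries, 1 point per library. The 9 measured mast cell genes summed to 13323 to 15940 FPKM in WT and 24943 to 39127 FPKM in KO. The ILC2 reference, most of it Id2, stayed between 5965 and 6245 FPKM, and neutrophil genes stayed under 1 FPKM.

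Of each library's FPKM, the 9 mast cell genes together took 1.62% in WT 1, 1.25% in WT 2, 2.65% in KO 1 and 4.15% in KO 2. The mean share was 1.43% ± 0.262 in WT and 3.40% ± 1.06 in KO (SD, n = 2 each), 2.38 times as high in KO, and the groups did not overlap. With red blood cell genes left out of the total, the share was 1.71% and 1.35% in WT, 2.86% in KO 1 and 4.27% in KO 2. The mean was then 2.33 times as high in KO. Set against the 6 ILC2 reference genes of the same library, the summed mast cell genes stood at 2.56 in WT 1, 2.15 in WT 2, 4.18 in KO 1 and 6.26 in KO 2, so they outweighed those genes in all 4 libraries. Id2 made up most of that reference. Over Gata3 alone, the summed mast cell genes stood at 30.1 in WT 1, 31.5 in WT 2, 49.1 in KO 1 and 93.7 in KO 2. Nearly all of the sum was protease RNA, the 4 proteases taking 95.5%, 96.0%, 94.7% and 95.7% of it in WT 1, WT 2, KO 1 and KO 2. In bulk RNA, a different number of cells that carry this RNA and a different amount of it per cell cannot be told apart. Which cells carried it was not tested.

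Cma1 encodes a granule protease of the chymase family. It lies on chromosome 14 from 55941451 to 55944675 (GRCm38.p6, gene 17228). Its level was 6922 and 5622 FPKM (WT) against 9525 and 17278 FPKM (KO), the highest of the 9 genes in each library. By level Cma1 was gene number 18 and 25 of the table in the WT libraries and number 11 and 5 in the KO libraries. Both KO libraries lay above both WT libraries, with KO 2 standing 1.81 times above KO 1. The log2 fold change was 1.04 (SE 0.25), and without KO 2 it was 0.61.

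Cpa3, carboxypeptidase A3, trims C-terminal residues and is stored with the chymases. It is gene 12873, on chromosome 3 from 20215616 to 20242209. Cpa3 was nearly the same in 3 libraries, at 4027 and 4038 FPKM in WT and 4411 FPKM in KO 1, and stood at 9713 FPKM in KO 2. KO 2 alone set it apart: the lower KO library was 1.09 times the higher WT library, and the log2 fold change of 0.70 had an SE of 0.30. Without KO 2 it was 0.13 and without KO 1 it was 1.27.

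Tpsb2, the tetrameric tryptase also called mMCP-6, is gene 17229 on chromosome 17 from 25366308 to 25368096. It stood at 3321 and 2174 FPKM in the WT pair and 7584 and 8155 FPKM in the KO pair. Here the KO libraries were close to each other, and the lower of them was 2.28 times the higher WT library. The log2 fold change was 1.55 (SE 0.19). In 3 libraries Tpsb2 came after Cma1 and Cpa3, and in KO 1 it stood above Cpa3.

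Mcpt4, a chymase of connective tissue mast cells, is gene 17227 on chromosome 14 from 56059744 to 56062310. Its libraries agreed within groups, at 950.4 FPKM in WT 1, 959.8 in WT 2, 2113 in KO 1 and 2286 in KO 2. The lower KO library was 2.20 times the higher WT library, and the log2 fold change was 1.20 (SE 0.15). Like Tpsb2, and unlike Cma1 and Cpa3, it differed little between the KO libraries, with KO 2 at 1.08 times KO 1.

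Reads could be shared with close relatives only in part. Of the 50-base windows of the longest GENCODE coding transcript, 0% of Tpsb2 and Cpa3 windows occurred in a transcript of another gene, Tpsab1 included. For Cma1 5.38% did, shared with Gm48934, and for Mcpt4 5.48%, shared with Cma2 and Mcpt9. This counts exact matches only, and the read length was not known.

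Fcer1a, the IgE-binding chain, is gene 14125 on chromosome 1 from 173221269 to 173227232. It stood at 357.5 and 334.6 FPKM (WT) against 731.1 and 1018 FPKM (KO). The groups were apart, the lower KO library being 2.04 times the higher WT library, and the log2 fold change was 1.32 (SE 0.21). Ms4a2, the beta chain, is gene 14126 on chromosome 19 from 11615517 to 11623790 and was far lower than the alpha chain in each library. It stood at 19.7 and 12.7 FPKM in the WT pair and 20.9 and 37.3 FPKM in the KO pair, so that KO 1 was 1.06 times the higher WT library and the log2 fold change of 0.78 had an SE of 0.41. Without KO 2 it was 0.38, without WT 2 it was 0.48 and without KO 1 it was 1.19. Of the windows of Ms4a2, 2.69% were shared with Ms4a4b.

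Hdc, histidine decarboxylase, forms histamine in mast cells and basophils. It is gene 15186 on chromosome 2 from 126593659 to 126624025. Its level was 239.4 FPKM in WT 1, 106.9 in WT 2, 435.9 in KO 1 and 524.6 in KO 2. The KO libraries lay above both WT libraries, but WT 1 was 2.24 times WT 2, the log2 fold change being 1.57 (SE 0.34) and 1.00 without WT 2.

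Gata2, gene 14461 on chromosome 6 from 88193891 to 88207032, encodes the transcription factor named above. It stood at 22.0 and 8.68 FPKM (WT) against 33.96 and 32.1 FPKM (KO). As for Hdc, WT 2 was the low library, with WT 1 at 2.54 times its level, and the KO libraries were close. The log2 fold change was 1.19 (SE 0.44), 0.56 without WT 2 and 1.81 without WT 1.

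Kit is gene 16590 on chromosome 5 from 75574987 to 75656722. Its level was 81.6 and 66.4 FPKM in the WT pair and 87.8 and 82.9 FPKM in the KO pair. All 4 libraries lay within 1.32 times of each other, the narrowest range of the 9 genes, and the log2 fold change was 0.21 (SE 0.25). Without WT 2 the log2 fold change was 0.06, and without WT 1 it was 0.36. ILC2s can carry KIT too.

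**Figure D2:**
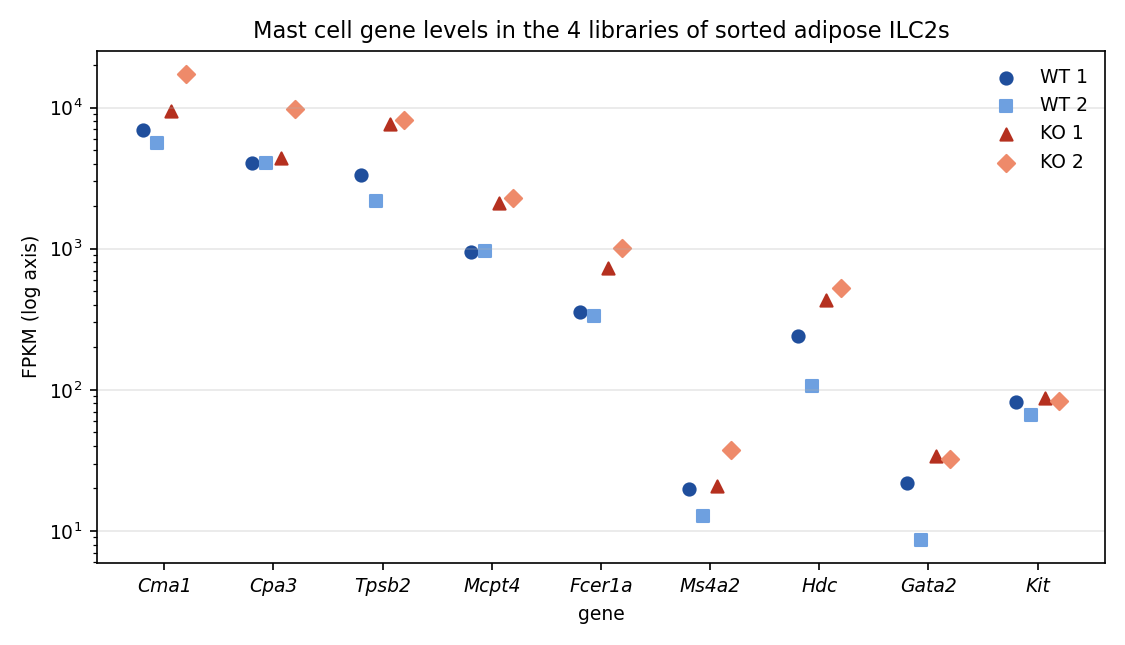
FPKM (log axis) of the 9 measured genes, 1 point per library. Cma1, Cpa3 and Ms4a2 have KO 2 well above KO 1, whereas Tpsb2, Mcpt4, Gata2 and Kit have the KO libraries close together, and the levels run from 8.68 FPKM (Gata2 in WT 2) to 17278 FPKM (Cma1 in KO 2).

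Since the genes differ in pattern and Gata2 is among them, the 250 bases upstream of their starts were searched for the GATA letters AGATAA and TGATAA and for the E-box CACATG, on both strands. RefSeq promoters of GRCm38.p6 were found for 8 of the 10 genes. GATA letters occurred in 4 of the 8 (Cpa3, Mcpt4, Fcer1a and Ms4a2) and in 16.6% of all 32851 windows. The E-box occurred in 1 (Fcer1a) and in 12.3% of windows. Further searches gave GGAAGT in 0 of the 8 against 19.7% of windows, and TGTGGT in 3 (Cpa3, Mcpt4 and Fcer1a) against 14% of windows. A match is no evidence of binding. The windows with these GATA letters are shown, and that of Cma1, the highest gene, as one without AGATAA or TGATAA. Capitals mark the GATA letters as read on the gene's strand (TTATCT is AGATAA on the other) and, in Fcer1a, the E-box. All 5 genes lie on the minus strand and are written 5′ to 3′. The regions are chr3:20242182-20242431, chr14:56062311-56062560, chr1:173227230-173227479, chr19:11623720-11623969 and chr14:55944676-55944925.
Cpa3: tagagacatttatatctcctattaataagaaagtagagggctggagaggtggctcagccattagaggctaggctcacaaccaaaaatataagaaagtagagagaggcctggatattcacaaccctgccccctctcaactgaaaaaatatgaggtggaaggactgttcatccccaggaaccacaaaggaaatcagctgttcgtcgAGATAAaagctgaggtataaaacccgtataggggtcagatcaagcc
Mcpt4: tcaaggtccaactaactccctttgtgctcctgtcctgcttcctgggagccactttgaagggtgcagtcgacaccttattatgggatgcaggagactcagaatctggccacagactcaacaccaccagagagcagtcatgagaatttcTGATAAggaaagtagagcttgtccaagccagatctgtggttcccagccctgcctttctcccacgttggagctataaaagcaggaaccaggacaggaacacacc
Fcer1a: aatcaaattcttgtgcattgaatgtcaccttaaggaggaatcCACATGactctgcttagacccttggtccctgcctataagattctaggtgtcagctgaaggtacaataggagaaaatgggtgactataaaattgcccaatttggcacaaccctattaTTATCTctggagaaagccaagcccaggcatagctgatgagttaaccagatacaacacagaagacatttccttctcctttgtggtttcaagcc
Ms4a2: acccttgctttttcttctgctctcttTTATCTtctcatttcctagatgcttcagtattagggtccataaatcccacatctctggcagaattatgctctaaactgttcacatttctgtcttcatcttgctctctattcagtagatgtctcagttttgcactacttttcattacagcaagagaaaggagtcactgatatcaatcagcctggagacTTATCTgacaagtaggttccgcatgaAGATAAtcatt
Cma1: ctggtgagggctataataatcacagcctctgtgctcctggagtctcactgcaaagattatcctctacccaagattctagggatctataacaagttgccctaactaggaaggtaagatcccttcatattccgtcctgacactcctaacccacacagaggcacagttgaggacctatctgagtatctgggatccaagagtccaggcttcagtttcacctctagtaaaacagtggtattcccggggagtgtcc

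The GATA letters end 41 bases before the start in Cpa3, 98 bases in Mcpt4 and 87 bases in Fcer1a, and in Ms4a2 the 3 matches end 219, 32 and 6 bases before it. Only AGATAA and TGATAA were searched, and other forms of the GATA letters were not. The printed Cma1 window holds such a form, CTATCT, which is AGATAG on the other strand. Whether any of these letters bear on the levels was not tested.

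In order of level, the first place (Cma1), Mcpt4, Fcer1a, Hdc and Kit kept their rank in all 4 libraries. The neighbours Cpa3 and Tpsb2 changed places in KO 1, and the lowest pair, Gata2 and Ms4a2, changed places between libraries, so their order is not larger than the spread between libraries.

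Across the whole table, 9818 genes averaged at least 1 FPKM and entered the test (limma on log2(FPKM + 1), adjusted p under 0.05); 0.163% of them were called higher in KO and 0.0509% lower. All 9 members passed the filter, at 8.68 FPKM or more in each library. Of these, 2 were called, Tpsb2 and Mcpt4, both higher in KO. Both KO libraries lay above both WT libraries in 9 of the 9 members, against 18.5% of all genes tested, and 6 of 9 had a log2 fold change of at least 1, against 7.06%. The median log2 fold change was 1.19 for the members and -0.01 for all genes tested. Because the members were chosen with this contrast known, nothing is read from these counts. Without any 1 of WT 1, WT 2, KO 1 or KO 2, limma called 0 genes of the table, with 528 to 896 at an unadjusted p under 0.05. With all 4 libraries kept, Tpsb2 and Mcpt4 were also not called at a pseudocount of 0.1, without a filter, with median-ratio scaling, with quantile normalization or with a replicate block (limma adjusted p from 0.0501 to 0.394).

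The ratio of a pair of genes within a library does not depend on how that library was scaled. Over the 36 pairs of members, the highest library ratio was between 1.29 and 3.93 times the lowest, with a median of 2.21. Over all 3848925 pairs of the 2775 genes averaging at least 20 FPKM with no 0, the median was 2.08. Taken singly, the members spanned a median of 3.04 times over the 4 libraries and those genes 1.63 times. Kit, at 1.32 times, lay below the median of all genes. The span of single members holds the KO against WT differences with which they were chosen, and nothing is read from it. With Kit left out, which was done after its values were seen, the median over 28 pairs was 2.05.

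The steadiest pairs were Mcpt4 to Fcer1a, at 2.66 and 2.87 for WT against 2.89 and 2.25 for KO, and Cma1 to Ms4a2, at 351 in WT 1, 442 in WT 2, 456 in KO 1 and 463 in KO 2. The least steady were Hdc to Kit, at 2.93 and 1.61 for WT against 4.96 and 6.32 for KO, and Cpa3 to Hdc, at 16.8 in WT 1, 37.8 in WT 2, 10.1 in KO 1 and 18.5 in KO 2. In the latter it is WT 2 that stands high and KO 1 that stands low.

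Set against Cpa3, Mcpt4, Tpsb2 and Fcer1a stood highest in KO 1. Mcpt4 was 0.236 and 0.238 of Cpa3 in WT, 0.479 in KO 1 and 0.235 in KO 2. Tpsb2 was 0.825 and 0.539 of Cpa3 in WT, 1.72 in KO 1 and 0.840 in KO 2. Fcer1a was 0.0888 and 0.0829 of Cpa3 in WT, 0.166 in KO 1 and 0.105 in KO 2. For these 3 genes the KO 2 ratio lay closer to the WT ratios than the KO 1 ratio did, so the KO libraries did not share 1 proportion among the proteases. Other members differed in this: Kit was 0.0203 and 0.0164 of Cpa3 in WT, 0.0199 in KO 1 and 0.00854 in KO 2, with KO 2 apart. Ms4a2 was 0.00489 and 0.00315 of Cpa3 in WT, 0.00473 in KO 1 and 0.00384 in KO 2, so both KO ratios lay between the WT ratios.

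**Figure D3:**
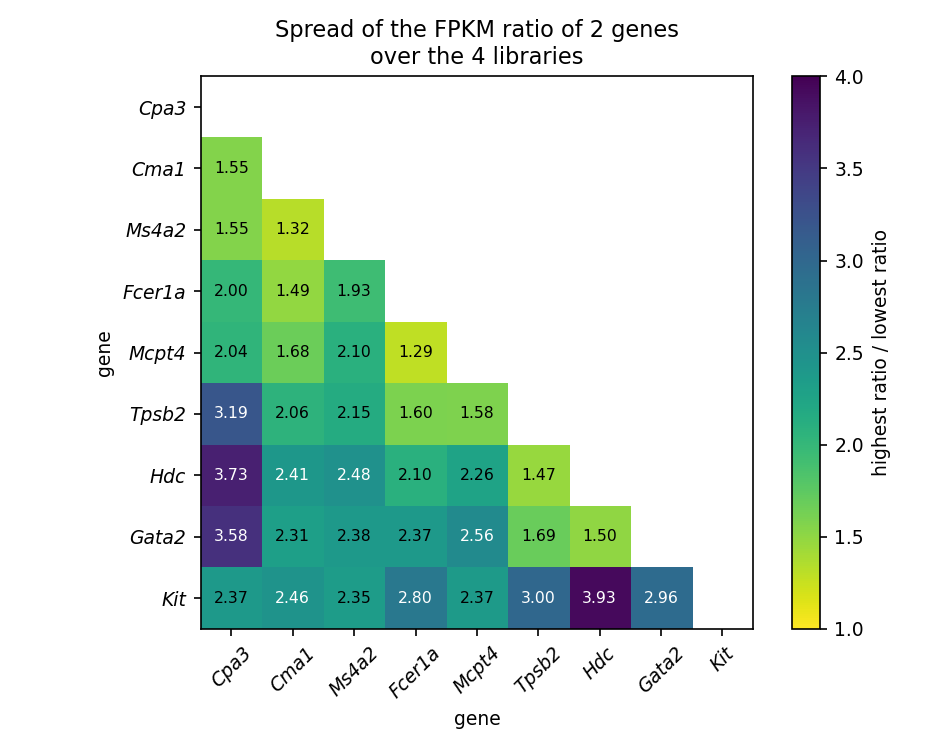
Highest over lowest FPKM ratio across the 4 libraries for each pair of the 9 genes, from 1.29 (Mcpt4 and Fcer1a) to 3.93 (Hdc and Kit); darker cells are pairs whose ratio varied more. Cpa3, Cma1 and Ms4a2 varied little against each other, as did Tpsb2, Hdc and Gata2, and Cpa3 against Hdc or Gata2 varied over 3.58 times or more. These groupings were named after the values were seen. Some pairs outside them varied as little, such as Cma1 with Fcer1a (1.49) and with Mcpt4 (1.68).

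Some receptors and proteases outside the set were compared with the members in the same way; these comparisons were chosen after the values were seen. Mrgprb1 and Mrgprb2 encode receptors of connective tissue mast cells, and Mcpt8 and Prss34 encode proteases of basophils. Mrgprb1 stood at 63.1 FPKM in WT 1, 72.3 in WT 2, 85.2 in KO 1 and 151 in KO 2, and Mrgprb2 at 65.8 and 76.5 FPKM (WT) against 89.2 and 126 FPKM (KO). Like Cpa3 they were highest in KO 2, and they were not lower in WT 2 than in WT 1. The ratio of Cpa3 to Mrgprb1 was 63.8 and 55.8 for WT against 51.8 and 64.4 for KO.

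Mcpt8 stood at 116.5 and 43.4 FPKM in the WT pair and 159 and 154 FPKM in the KO pair, and Prss34 at 217 FPKM in WT 1, 104 in WT 2, 345 in KO 1 and 463 in KO 2. Both had WT 2 as the low library, as had Hdc and Gata2. A low WT 2 was not particular to these genes, since WT 2 lay below WT 1 in 7 of the 9 members. WT 1 was 1.23 times WT 2 in Cma1 and 1.55 times in Ms4a2, against 2.24 times in Hdc and 2.54 times in Gata2. The ratio of Gata2 to Mcpt8 was 0.189 in WT 1, 0.200 in WT 2, 0.214 in KO 1 and 0.209 in KO 2, and that of Hdc to Prss34 was 1.10 and 1.03 for WT against 1.27 and 1.13 for KO. The same genes against Cpa3 moved much more, Gata2 to Cpa3 being 0.00547 in WT 1, 0.00215 in WT 2, 0.00770 in KO 1 and 0.00330 in KO 2.

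Among Cpa3, Cma1, Ms4a2, Mrgprb1 and Mrgprb2 the ratios of the 10 pairs spanned a median of 1.55 times over the libraries (1.24 to 1.86). Among Hdc, Gata2, Mcpt8 and Prss34 the 6 pairs spanned a median of 1.48 times (1.13 to 1.66), and the 20 pairs that join the sets spanned 2.94 times (1.96 to 3.73). The sets were formed from these same values, so this is a description, and not every gene falls into one of them. Tpsb2, a tryptase of mast cells, had ratios to the second set spanning 1.44 times with Prss34, 1.47 with Hdc, 1.69 with Gata2 and 1.86 with Mcpt8. It varied as little against members in neither set, at 1.58 times with Mcpt4 and 1.60 with Fcer1a. Its ratios spanned 2.06 times with Cma1 and 3.19 with Cpa3. Cd200r3, a receptor gene of basophils and mast cells, stood at 65.0 and 34.5 FPKM in the WT pair and 58.5 and 94.5 FPKM in the KO pair, with KO 2 alone at the top. Whether mast cells, basophils or the ILC2s carried the RNA was not tested.

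**Figure D4:**
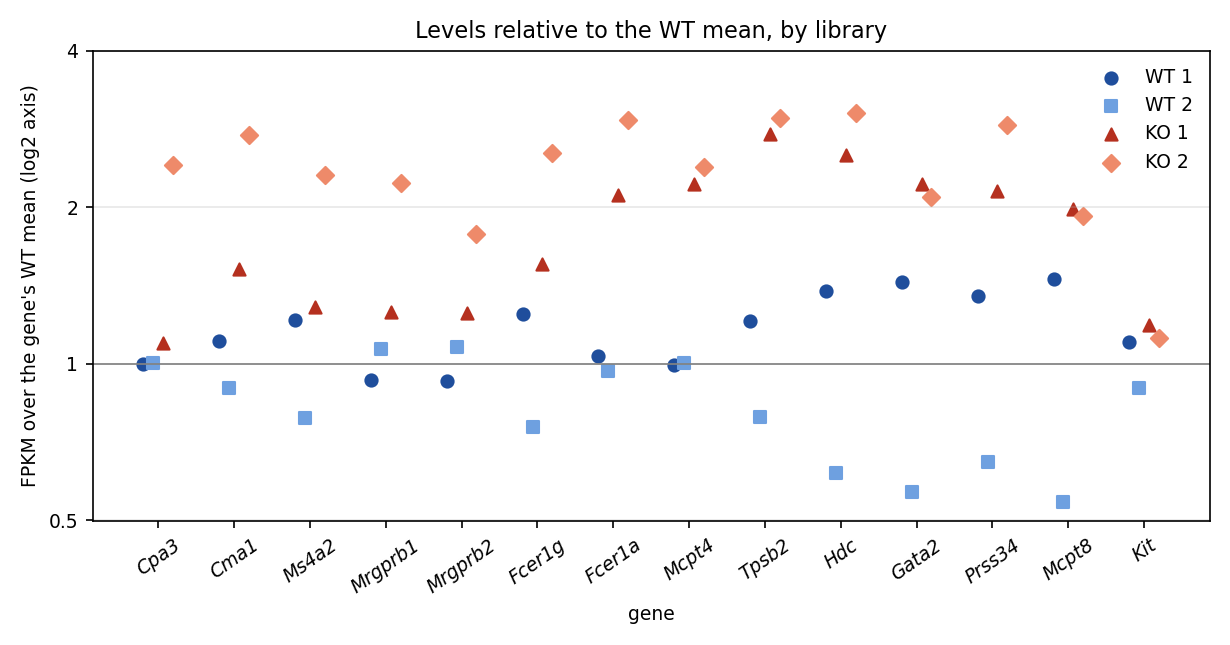
FPKM of each gene divided by its own WT mean (log2 axis), 1 point per library, for the 9 members and for Mrgprb1, Mrgprb2, Fcer1g, Prss34 and Mcpt8. From Cpa3 to Mrgprb2, KO 2 stands alone at the top. Hdc, Gata2, Prss34 and Mcpt8 have WT 2 at the bottom and WT 1 well above it. WT 2 is also the lowest point for Cma1, Ms4a2, Fcer1g, Fcer1a, Tpsb2 and Kit. The Kit points lie close together.

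Related genes came from lists written with earlier results of these data known, and are set beside the called shares of 0.163% higher and 0.0509% lower given above. In the lists that follow, limma called 0 genes over the whole table; an unadjusted p under 0.05 in either direction, counted below, was reached by 9.18% of all genes tested. Of other granule genes 12 of 14 were tested; 7 had an unadjusted p under 0.05, 12 had a positive log2 fold change and the median was 1.39. Serglycin (Srgn), the core of the granule matrix, stood at 6318 and 7490 FPKM (WT) against 6445 and 8338 FPKM (KO), with overlapping groups. Granzyme B (Gzmb) stood at 200.5 and 59.2 FPKM in the WT pair and 501 and 337 FPKM in the KO pair. Of proteases of mucosal mast cells, Mcpt1 reached at most 0.07 FPKM, and Mcpt2 stood at 0.08 and 0.00 FPKM in WT, 0.08 in KO 1 and 5.68 in KO 2, above 1 FPKM in that library alone. Those 2 genes were named after their values were seen.

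Of 17 receptor genes 12 were tested and 6 had an unadjusted p under 0.05, the median log2 fold change being 0.87. Cd63, a granule membrane tetraspanin, stood at 302 FPKM in WT 1, 223 in WT 2, 618 in KO 1 and 641 in KO 2. Il1rl1, the IL-33 receptor carried by ILC2s and mast cells alike, stood at 290 and 250 FPKM (WT) against 215 and 219 FPKM (KO), the opposite order to the members. Of 25 genes that signal below the IgE receptor, 23 were tested and 4 had an unadjusted p under 0.05, with a median log2 fold change of 0.05. Fcer1g, the gamma chain, stood at 858 and 521 FPKM in the WT pair and 1074 and 1757 FPKM in the KO pair. The adaptor genes Lat and Lcp2 had log2 fold changes of -0.04 and -0.24. Syk, the kinase recruited by the gamma chain, was at 0.97 and 0.70 FPKM (WT) against 1.21 and 5.12 FPKM (KO), and was named after its values were seen.

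Of 13 genes of KIT signalling 12 were tested, 1 had an unadjusted p under 0.05, close to the share in all genes, and the median log2 fold change was 0.06. The one of highest level was Bcl2l11, which encodes the death factor BIM, at 61.0 and 29.1 FPKM in the WT pair and 52.0 and 47.3 FPKM in the KO pair. Kitl, the KIT ligand, was at most 0.03 FPKM. Of 16 transcription factor genes 11 were tested, 1 had an unadjusted p under 0.05, again close to that share, and the median was 0.52. Mitf, a mast cell factor named here after its values were seen, stood at 6.30 FPKM in WT 1, 2.76 in WT 2, 5.12 in KO 1 and 2.49 in KO 2, so the groups overlapped. Bhlhe40 stood at 280 and 263 FPKM (WT) against 194 and 166 FPKM (KO). Of 10 eicosanoid genes 8 were tested, 1 had an unadjusted p under 0.05 and the median was 0.36. Alox5, 5-lipoxygenase, stood at 105 and 98.8 FPKM in the WT pair and 88.8 and 72.4 FPKM in the KO pair, and Ptgs2, cyclooxygenase 2, at 14.2 FPKM in WT 1, 8.93 in WT 2, 52.6 in KO 1 and 41.0 in KO 2. Of 12 basophil and eosinophil genes 5 were tested and 2 had an unadjusted p under 0.05, with a median of 0.64. Both, Mcpt8 and Prss34, also belong to the list of other granule genes and are among the genes counted there. Cd200r3 likewise belongs to the receptor list too. The basophil counts are therefore not separate from those of the granule and receptor lists.

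The 10 other genes nearest in pattern were chosen by the root mean square difference of centred log2(FPKM + 1) from the summed members over the 4 libraries, among 2768 genes averaging at least 20 FPKM. They were Plek, Egr1, Serpinb1a, Ctla2a, Bcl10, Sirt2, Tbpl1, Med8, Lilrb4a and Emb, at distances of 0.08 to 0.17. The summed members have a root mean square of 0.60 about their own mean on that scale. Plek, pleckstrin, stood at 51.3 and 44.95 FPKM (WT) against 87.6 and 148 FPKM (KO). Serpinb1a, an inhibitor of granule proteases, stood at 341 and 303 FPKM in the WT pair and 461 and 805 FPKM in the KO pair. Fcer1g was next, in place 11. Among genes of the lists, the ILC2 gene Icos was in place 31, before Cd63 in place 39 and Mrgprb1 in place 44. With 4 libraries many genes match a profile, and 73 lay at least as near as the median member.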

How the data were processed

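RNA was measured in 4 libraries of sorted ILC2s, 2 WT and 2 KO, grouped by the sample titles. The authors deposited 1 table of FPKM values, rounded to 2 decimals, with no counts. Bowtie2, RSEM and DESeq2 and the build GRCm38.p6 are named in the submitters' processing notes, without roles, versions or settings. FPKM divides by transcript length and by the library total, so a shift in very abundant genes moves the rest. Low values gave steps that correspond to about 18900000 to 22100000 mapped fragments a library, but only 34.4% to 37.3% of them lay within 0.1 of a whole fragment, so fragments were not recovered.

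The test was limma 3.58.1 (R 4.3.3; trend, robust) on log2(FPKM + 1), for genes averaging at least 1 FPKM, with p-values adjusted by Benjamini-Hochberg and called under 0.05. Log2 fold changes refer to that scale and understate low genes. Ratios are of FPKM within a library. The code was tested on simulated data. Columns of the table tied to no sample numbered 0. The members, lists and naming rule (all members; of each list the called genes, otherwise up to 4 of highest mean; the 10 nearest genes) were chosen with earlier results of these data known, and the text says where a gene falls outside it; the lists are not shown in full. Alternatives were other pseudocounts, filters and scalings, a replicate term and leaving out each library.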

Additional observations from a re-analysis of the deposited data

How the results depend on the processing

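The 21 genes called over the whole table became 0 without a filter, with a replicate block, with quantile normalization and at a pseudocount of 0.1, and 1 with median-ratio scaling; leaving out each library gave 0 in all 4 cases. With at least 5 FPKM in 2 libraries, TPM scaling (each library rescaled to a common total) or a common total without red blood cell genes and members, 20, 23 and 25 genes were called. The last 2 settings shifted the median of all genes by 0.11 (log2) and added Fcer1a to the called members; the last also called 1 gene of the related lists, Cd63, where the main setting and the other alternatives called 0. The cause was not tested. Of 108 member values over 12 settings, 0 were negative. Groups that do not overlap fix this when a library is left out. The filters and the replicate block cannot change a member's log2 fold change, so they fix it too. Tpsb2 and Mcpt4 were not called in 18 of their 24 alternative values.

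The median log2 fold change of the members, 1.19, lay between 0.89 (without WT 2) and 1.27 with a library left out. It lay between 1.15 and 1.31 otherwise, and the filters and the block leave it at 1.19 by construction. With a library left out some members moved more, Cpa3 lying between 0.13 and 1.27 and Gata2 between 0.56 and 1.81. Mcpt4 moved less, between 1.14 and 1.26. The ratio of KO to WT shares, 2.38, ran from 1.85 to 2.90 with a library left out, and that of the members to the ILC2 reference, 2.22, from 1.78 to 2.67. The median spread of the member ratios, 2.21, ran from 1.65 to 2.04 over 3 libraries, alternatives chosen after seeing the data. Leaving out a library cannot raise the spread of a pair, so values no higher than 2.21 were fixed in advance. The labels do not say that equal numbers pair libraries, and deviations of same-numbered libraries correlated at 0.025 across 9818 genes. Counting error cannot be given, because the table holds no counts.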

Other observations

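Some other granule genes of the lists, named after their values were seen, had their lowest value in WT 2. Cathepsin G (Ctsg) stood at 63.4 FPKM in WT 1, 22.8 in WT 2, 110 in KO 1 and 104 in KO 2, the membrane-anchored tryptase Tpsg1 at 45.8 and 10.9 FPKM (WT) against 81.4 and 93.3 FPKM (KO), and Cma2 at 2.31 and 0.42 FPKM in the WT pair and 17.3 and 12.1 FPKM in the KO pair. Tph1, which starts serotonin synthesis, stood at 30.9 FPKM in WT 1, 13.4 in WT 2, 42.9 in KO 1 and 76.6 in KO 2, and the vesicular monoamine transporter Slc18a2 at 31.6 and 23.3 FPKM (WT) against 32.4 and 54.7 FPKM (KO). For Slc18a2 the WT libraries and KO 1 were closer, with KO 2 above them. None of these 5 genes was called by limma over all genes.

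Low levels of B cell genes also differed between libraries: the 7 genes of that list summed to 6.09 and 0.19 FPKM in the WT pair and 23.7 and 13.8 FPKM in the KO pair. The adipocyte list summed to 146 FPKM in WT 1, 9.64 in WT 2, 40.6 in KO 1 and 26.6 in KO 2. Most of the WT 1 sum was 1 gene, Fabp4, at 139 FPKM in WT 1, 0.68 in WT 2, 15.75 in KO 1 and 21.1 in KO 2. Adipoq reached at most 1.75 FPKM, Lep 0.5 and Plin1 0.19. WT 2, in which Hdc, Gata2 and Mcpt8 were lowest, also had the lowest sum for both lists. Their part in the results above was not tested.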
